A study of Mus musculus with 931 samples.

Results

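Single pancreatic β cells, the insulin-making cells of the islet, had been collected in 2 ways: picked by hand, cell by cell, or sorted by FACS (fluorescence-activated cell sorting). The comparison holds the unselected cells of 1 hormone whose labels give one of these methods, which were 538 of the 917 cells in the single-cell count table. Of these, 248 cells in 13 labelled batches were picked and 290 cells in 12 batches were sorted. All came from mice with the Ins1-RFP+ reporter, a red fluorescent protein driven by the insulin gene Ins1, on a mixed background of C57BL/6 and C3H. The labels name no treatment, animal, sex or pooling, and the series description speaks of FACS only, so the picked group rests on the label of each cell. Picked and sorted batches numbered 2 and 1 at E17.5 (E, embryonic day), 1 and 2 at P0 (P, postnatal day), 2 and 3 at P3, 2 and 1 at P9, 2 and 1 at P15, 1 and 2 at P18, and 3 and 2 at P60. As a second set, 328 α cells, the glucagon-making cells, were compared in the same way: 126 picked cells in 9 batches and 202 sorted cells in 11. They carried Gcg-Cre, Rosa-RFP+, in which Cre made under the glucagon gene switches on a lasting red label, on a background mixed from C57BL/6, C3H and CBA/J, and were not collected at P3.

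Freeing single cells from an islet exposes them to enzymes, shear, cooling and a change of glucose. The immediate early genes, among them Fos, Jun and Egr1, encode transcription factors and feedback regulators that are transcribed within minutes of such stimuli, from promoters on which factors such as CREB and SRF are already bound. Heat shock chaperones and the ATF4 branch of the integrated stress response follow more slowly, and β cells in addition run a strong folding machinery in the endoplasmic reticulum (ER) because of the insulin load.

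The promoters of Fos, Jun, Dusp1 and Btg2 are shown because the batches separated by label form in these immediate early genes, as described below by stage. Each is the 250 bases before the RefSeq start site in GRCm38.p6, read along the gene. Fos lies at chr12:85473640-85473889 on the plus strand. Jun lies at chr4:95052223-95052472, Dusp1 at chr17:26508473-26508722 and Btg2 at chr1:134079156-134079405, all on the minus strand. Capitals mark TGACG, the core of the cAMP response element bound by CREB, on either strand.
Fos: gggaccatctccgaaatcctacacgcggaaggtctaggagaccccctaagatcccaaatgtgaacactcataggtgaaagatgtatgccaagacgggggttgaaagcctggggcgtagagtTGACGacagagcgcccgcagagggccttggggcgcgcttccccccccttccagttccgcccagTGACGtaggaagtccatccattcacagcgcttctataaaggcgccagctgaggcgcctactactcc
Jun: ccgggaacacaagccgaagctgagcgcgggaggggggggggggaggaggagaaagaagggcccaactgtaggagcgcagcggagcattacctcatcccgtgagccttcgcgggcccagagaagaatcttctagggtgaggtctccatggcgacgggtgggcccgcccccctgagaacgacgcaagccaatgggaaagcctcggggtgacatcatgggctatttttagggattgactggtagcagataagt
Dusp1: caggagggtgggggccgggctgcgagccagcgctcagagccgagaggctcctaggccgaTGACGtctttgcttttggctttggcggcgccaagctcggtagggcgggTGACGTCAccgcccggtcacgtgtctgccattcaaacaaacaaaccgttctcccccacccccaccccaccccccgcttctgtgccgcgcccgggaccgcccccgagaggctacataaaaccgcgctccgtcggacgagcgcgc
Btg2: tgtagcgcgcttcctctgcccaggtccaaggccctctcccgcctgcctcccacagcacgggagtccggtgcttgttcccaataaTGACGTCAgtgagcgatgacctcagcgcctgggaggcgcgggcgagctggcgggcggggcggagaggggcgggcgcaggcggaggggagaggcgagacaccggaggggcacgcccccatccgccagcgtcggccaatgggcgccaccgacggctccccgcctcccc
The Fos stretch held 2 matches, Dusp1 3, Btg2 2 and Jun 0, where the palindrome TGACGTCA counts once on each strand. TGACG was found in 17 of 30 promoters of the immediate early list (56.7%), in 9 of 18 of the heat shock list (50%) and in 19.8% of all 27025 promoters. The heat shock element (TTC, GAA and TTC with 2 free bases between neighbours), searched on both strands, was found in 2 of 18 heat shock promoters, 0 of 30 immediate early promoters and 0.514% of all. The CArG box, the site of SRF, was found in 3 of 30 immediate early promoters and 1.62% of all. These counts describe letters in a window and show neither binding nor its absence.

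Sequencing depth was alike in both groups. Picked batches held 5 to 31 cells and 5.96 M to 38.3 M gene reads (M, the unit of CPM), and sorted batches 10 to 39 cells and 9.99 M to 49.1 M. The batch median of reads per cell differed by 0.997-fold between methods (exact permutation p = 0.950, adjusted p = 0.972). ERCC spike-ins, synthetic RNAs added to each cell, took 1.30% to 3.83% of reads in picked and 1.64% to 3.20% in sorted batches (0.954-fold, exact permutation p = 0.613, adjusted p = 0.972). At 500000 reads a cell, picked batches had 6677 to 7968 genes detected (median 7077) and sorted batches 6661 to 7538.5 (median 7191.5), a 1.00-fold difference (exact permutation p = 0.878). Both groups carried the β cell label's hormone: Ins1 and Ins2 took 20.7% to 48.9% of gene reads in picked batches (median 45.5%) and 25.6% to 50.2% in sorted batches (median 40.8%), 0.967-fold (exact permutation p = 0.401). The 2 groups overlapped in each of these values.

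A second division of the batches runs across the methods. Cells up to sample 663 carry a full set of labels, with stage and strain as tags of their own, and cells from sample 664 on carry a short set. The labels do not say what separates them, and it is called the label form here. Among picked β batches 7 had the full and 6 the short form, and among sorted ones 9 and 3. At P0, P15 and P18 the form coincided with the method (picked was short at P0 and P18, and sorted was short at P15), so there form and method cannot be told apart. At E17.5 and P9 all batches had the full form. Methods are therefore also given with the label form as a covariate and within each form. A fit within a form holds only the stages with both methods in that form. These are E17.5, P9 and P60 for the full form and P3 and P60 for the short form, so such fits also differ in stage.

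No gene passed the threshold between picked and sorted β batches. edgeR's quasi-likelihood test called 0 of 16107 genes (0%), with a smallest adjusted p of 0.0816. At an unadjusted p under 0.05 there were 1362 genes (8.46%), 585 higher in picked cells (3.63%) and 777 lower (4.82%). DESeq2 called 103 genes (0.639%), 55 higher and 48 lower, and edgeR with no filter on low counts called 5 of 25710 (0.0194%). For the 5186 genes with a mean of at least 20 CPM (counts per M gene reads, TMM-scaled), the median SE of the log2 difference was 0.14 and the median 95% interval was 0.60 wide. The interval lay within a 2-fold change in either direction, a log2 difference of 1, for 5042 of them, but for only 7985 of all 16107. All gene differences below are log2 values, picked minus sorted, from edgeR, with Benjamini-Hochberg adjusted p over all genes tested. The median of all genes was −0.031. With library sizes set by the spike-ins it was 0.13, so that scaling moves every value up by about 0.16, and the share of genes past the unadjusted threshold that were higher in picked cells went from 43.0% to 81.0%. In a limma fit with each cell weighted equally, that share was 61.9%. That fit averages log2(CPM + 1) over the cells of a batch without TMM, so weights, scaling, log step and test change together.

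Most immediate early genes had a lower estimate in picked batches, but edgeR called none of them and DESeq2 called 1, Atf3. Of 36 genes listed, 35 were tested, 27 with a lower and 8 with a higher estimate, and the median was −0.58. The median was −0.38 without the picked batch of 5 cells at P18, −0.23 over batches of at least 10 cells and −0.12 in a limma fit with each cell weighted equally. At an unadjusted p under 0.05 there were 4 lower members and 1 higher (all genes: 4.82% lower and 3.63% higher). The lower ones were Atf3, Ier3 (−0.89), Zfp36 (−0.68) and Klf2, and the higher one was Jund (0.49), a Jun family member. The summed level of the list ran from 326 to 5887 CPM in picked batches (median 1839) and from 965 to 4593 CPM in sorted ones (median 3155), so the groups overlapped widely.

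Fos encodes the partner of Jun in the AP-1 transcription factor. In picked batches its lowest, median and highest levels were 20.8, 649 and 1929 CPM, and in sorted batches 265, 1112 and 1618 CPM. Both the lowest and the highest batch were picked. The difference was −0.83 (SE 0.44, 95% interval −1.75 to 0.090, adjusted p = 0.649), with picked lower in 5 of 7 stages. Without the lowest batch, the picked batch at P18 with 5 cells, it was −0.51. Nearly every cell carried Fos: at 10 CPM or more it was detected in 90.3% of picked cells (40% to 100% by batch) and in 97.2% of sorted cells (87.0% to 100%). Jun ran from 6.21 through 64.3 to 267 CPM in picked batches and from 17.1 through 112 to 191 CPM in sorted ones, again with both extremes among the picked. Its difference was −0.58 (SE 0.41, 95% interval −1.42 to 0.27, adjusted p = 0.767), and −0.24 without the P60 sorted batch 1. Egr1, an early growth response factor, had 10.5, 249 and 684 CPM in picked and 79.2, 333 and 633 CPM in sorted batches. The groups overlapped over most of their range, and the difference was −0.66 (SE 0.39, adjusted p = 0.689), or −0.37 without the P18 picked batch.

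Members that end or brake such responses showed the same layout. Dusp1, a phosphatase that switches off MAP kinases, had 6.60, 127 and 394 CPM in picked and 57.8, 180 and 369 CPM in sorted batches, a difference of −0.82 (SE 0.44, adjusted p = 0.645). Btg2, an antiproliferative gene, had 65.4, 228 and 733 CPM in picked and 169, 382 and 602 CPM in sorted batches, a difference of −0.51 (SE 0.29, adjusted p = 0.672). For both genes the sorted batches lay inside the range of the picked ones. Atf3, a stress-induced repressor, had no read in 10 of 13 picked batches and in 4 of 12 sorted batches, with highest values of 25.9 and 11.8 CPM. The batch with the most Atf3 was thus a picked one, and the fitted difference of −4.33 (SE 2.08, edgeR adjusted p = 0.490, DESeq2 adjusted p = 0.00562) is no bound, since most picked batches are at 0. Without the P60 sorted batch 1 it was −1.72. It was −0.49 with the label form as covariate and −0.21 among full batches, and Atf3 was at 0 CPM in all 9 short batches.

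P3 and P60 are the stages at which 1 method occurs in both label forms, and there the Fos level was lower in the short batches of the same method. The 2 effects were not compared by a test. At P3, where both forms occur among sorted batches, Fos stood at 1197 and 1188 CPM in the sorted batches of the full form and at 365 CPM in the sorted batch of the short form. The 2 picked batches, both short, had 649 and 227 CPM. At P60 the full batches had 1035 CPM (sorted) and 656 CPM (picked), and the short ones 265 CPM (sorted) and 298 and 301 CPM (picked). At P15, where the sorted batch is the short one, it was the lower one, at 430 CPM against 680 and 1067 CPM in the picked batches. At P0 the picked short batch had 476 CPM and the sorted full batches 1618 and 1136 CPM, and at P18 the values were 20.8 CPM against 1087 and 878 CPM. At E17.5 and P9, where all batches are full, the sorted batches (1169 and 1315 CPM) lay between the picked ones at E17.5 (1056 and 1929 CPM) and near the upper picked one at P9 (1354 and 587 CPM).

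**Figure D1:**
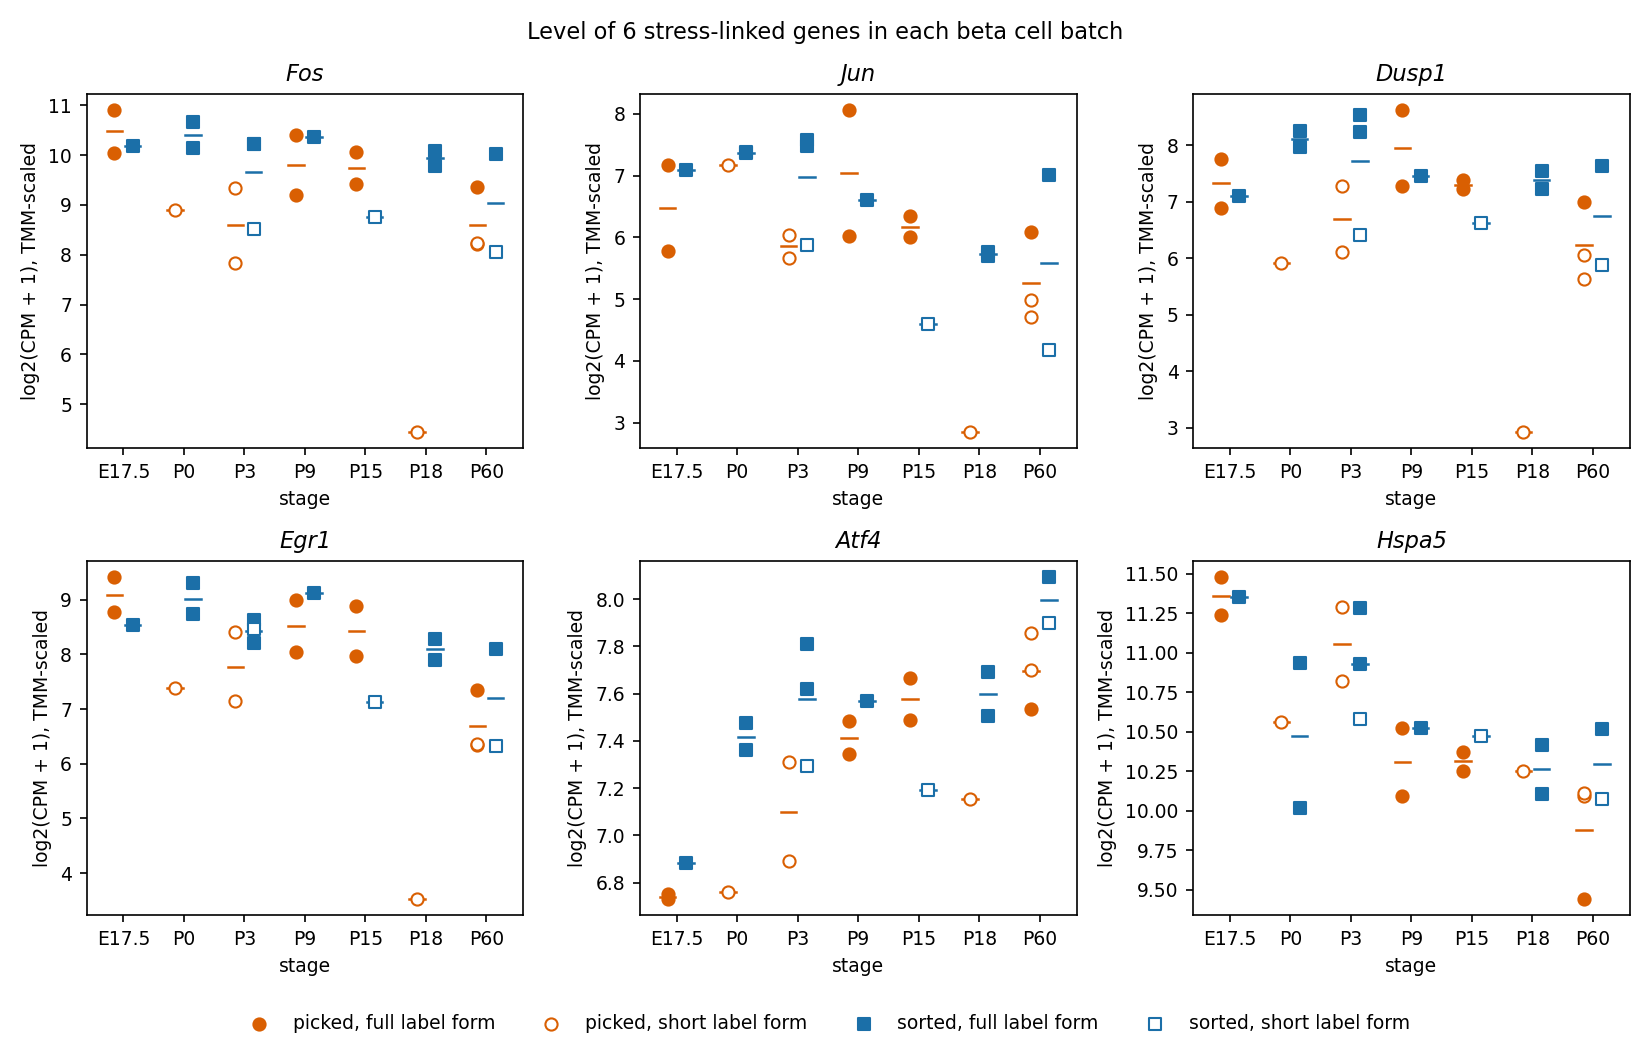
Level of Fos, Jun, Dusp1, Egr1, Atf4 and Hspa5 in each of the 25 β cell batches, as log2(CPM + 1) on the vertical axis against stage, with method by colour, label form by open or filled marker and short lines for the mean of each method at a stage. For Fos, Jun and Dusp1 every batch of the short form lies below every batch of the full form at each of the 5 stages that hold both, whichever method it had.

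In all 5 stages that hold both forms, every short batch lay below every full batch for 10 of the 35 immediate early genes (Fos, Fosb, Jun, Junb, Ier2, Btg2, Dusp1, Arc, Npas4 and Klf4). Over all 17032 genes tested this was so for 40 (0.235%). Across all batches Fos ran from 587 to 1929 CPM in the 16 full batches (median 1112) and from 20.8 to 649 CPM in the 9 short ones (median 301). Jun had medians of 112 and 30.5 CPM, Dusp1 of 180 and 65.7 CPM, and Btg2 of 418 and 198 CPM, in full and short batches. Across stages the ranges of Fos, Jun and Dusp1 overlapped between the forms, and those of Btg2 (228 to 733 CPM in full, 65.4 to 217 CPM in short batches) did not.

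The label form was tested with stage and method in the model, a test added after the data were seen. The short minus full difference had a median of −1.24 over the immediate early list, with 16 of 35 members lower at an unadjusted p under 0.05 and 0 higher, beside 5.33% lower and 2.91% higher among all genes (1404 genes at that threshold, 8.24%). It was −1.68 (SE 0.36, adjusted p = 0.172) for Fos, −1.68 (SE 0.32, adjusted p = 0.0699) for Jun, −1.72 (SE 0.31, adjusted p = 0.0699) for Dusp1 and −1.18 (SE 0.22, adjusted p = 0.0699) for Btg2. None of these passed the threshold in that fit, in which edgeR called 1 of 17032 genes (0.00587%), the pseudogene Rps3a3. Without the low-count filter edgeR called 14 of 36 immediate early genes, all lower in short batches, with adjusted p of 7.34e-17 for Fos, 9.57e-13 for Jun, 1.52e-15 for Dusp1 and 4.52e-12 for Btg2. DESeq2 gave these 4 genes adjusted p of 0.00176, 2.50e-06, 5.13e-05 and 2.35e-06. The calls thus depend on the filter and the tool. Jun, Dusp1 and Btg2 were among the 7 genes called for the label form of β batches when β and α batches shared 1 fit (adjusted p = 0.0428 each). In that fit each cell type had its own label form term, and only the β term was tested. DESeq2 called 230 genes (1.35%) and edgeR without the low-count filter 111 (0.432%). In α batches, of which only 1 picked batch was full and only 1 sorted batch was short, edgeR called 0 genes for the label form with the filter and 0 without it, 920 had an unadjusted p under 0.05 (5.41%) and DESeq2 called 266 (1.56%). The immediate early list had a median short minus full difference of −0.37 there, with 20 of 35 members lower and 15 higher. At an unadjusted edgeR p under 0.05, 3 were lower and 1 higher (all genes: 446 of 16998 lower and 474 higher). Fos was −0.70, Jun −0.76 and Egr1 −0.0098 in α batches.

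With the label form as a covariate the picked minus sorted difference was −0.30 for Fos, 0.069 for Jun, −0.29 for Egr1, −0.30 for Dusp1 and −0.13 for Btg2, and the median of the immediate early list was −0.17. Among full batches only, the list's median was −0.19, and among short batches only it was 0.044. Fos was −0.23 among full and 0.23 among short batches, and Jun −0.18 and 0.33. Over all stages, the batch median of the summed list was 2525 CPM in picked full, 3419 CPM in sorted full, 1110 CPM in picked short and 1326 CPM in sorted short batches.

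Heat shock genes differed by small amounts. Of 21 tested members (22 listed), 17 had a lower and 4 a higher estimate in picked batches, with a median of −0.16 that went to −0.016 under spike-in scaling and to 0.090 among short batches. None was called by edgeR or DESeq2, and at an unadjusted edgeR p under 0.05 there were 3, all lower (all genes: 4.82% lower). Hsp90aa1, the inducible HSP90 chaperone, had 132, 159 and 265 CPM in picked and 161, 193 and 296 CPM in sorted batches. Its difference was −0.30 (SE 0.10, unadjusted edgeR p = 0.00548, adjusted p = 0.380), lower in 6 of 7 stages, with overlapping groups. The other 2 were Hspe1 (−0.38), the mitochondrial co-chaperone, and Dnaja1 (−0.23), a cytosolic co-chaperone. Hspa1a, the stress-inducible HSP70, ran from 0 through 1.86 to 64.1 CPM in picked and from 0 through 6.92 to 48.3 CPM in sorted batches, and Hspa1b from 0 through 0.174 to 13.8 CPM and from 0 through 0.309 to 7.91 CPM. The 2 genes are near-identical copies between which counting can split reads, so their differences (−1.45, SE 1.00, and 1.07, SE 1.18) are uncertain. At 10 CPM or more Hspa1a was found in 0% to 57.1% of the cells of a picked batch (median 10%) and in 0% to 41.9% of a sorted one (median 14.5%), and the highest batch was a picked one at P60.

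In the ATF4 branch, which raises amino acid supply and the redox genes when translation initiation is braked, all 23 listed genes were tested. There were 16 lower and 7 higher estimates, with a median of −0.13 (0.027 under spike-in scaling). At an unadjusted p under 0.05, 4 members were lower and 0 higher (all genes: 4.82% lower and 3.63% higher). These were Atf4, Ppp1r15a (−0.47), which reverses the translational brake, Aldh18a1 (−0.25), of proline synthesis, and Slc3a2 (−0.19), a subunit of amino acid transporters. Atf4 itself had 105, 161 and 231 CPM in picked and 117, 185 and 272 CPM in sorted batches. By stage it was lower in picked batches in 6 of 7: at E17.5 it had 107 and 105 CPM (picked) and 117 CPM (sorted), at P18 141 CPM (picked) and 181 and 206 CPM (sorted), and at P60 184, 207 and 231 CPM (picked) and 272 and 238 CPM (sorted). P15 went the other way, with 179 and 202 CPM in picked batches and 145 CPM in the sorted one. The difference was −0.29 (SE 0.095, 95% interval −0.48 to −0.088, unadjusted edgeR p = 0.00649, adjusted p = 0.384), −0.19 with the label form as covariate, −0.26 among full and −0.15 among short batches. Ddit3, the pro-apoptotic factor CHOP, differed by −0.21 (SE 0.27), and by 0.10 with the label form as covariate.

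The ER folding list gave a median of −0.059 over 23 genes, 15 lower and 8 higher, which was 0.095 under spike-in scaling. Its sign differed between the fits within the label forms, which share only P60, so form and stage cannot be told apart there. Among full batches it was −0.19, with 20 of 23 lower and 8 lower at an unadjusted p under 0.05 (all genes: 368 of 15116 lower). Among short batches it was 0.19, with 18 of 23 higher and 3 higher at that threshold (all genes: 463 of 14163 higher). Hspa5, the main ER chaperone BiP, had 694, 1328 and 2859 CPM in picked and 1035, 1469 and 2618 CPM in sorted batches, with sorted batches inside the picked range. Its difference was −0.10 (SE 0.11, 95% interval −0.34 to 0.13, adjusted p = 0.889) in all batches together. It was −0.37 among full and 0.26 among short batches, and 0.069 under spike-in scaling. Syvn1 (−0.54), the ubiquitin ligase of ER-associated degradation, was the single member at an unadjusted p under 0.05.

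The remaining stress lists had small medians of either sign. Of 16 hypoxia targets tested, 3 were higher and 1 lower at an unadjusted p under 0.05 (all genes: 3.63% higher and 4.82% lower). The higher ones were Pdk1 (0.54), a kinase that inhibits pyruvate dehydrogenase, Kdm3a (0.36), a histone demethylase, and Ndrg1 (0.31). Ldha (−2.48) was lower, at levels under 1 CPM at the median. The list's median was 0.053 (−0.060 among full and 0.27 among short batches), and Vegfa, the vascular growth factor, differed by −0.18 (SE 0.15). The oxidative stress, ferritin and metallothionein list had a median of −0.10 over 21 genes (0.062 under spike-in scaling, 0.033 among full and 0.071 among short batches). Its lower members at that threshold were Ftl1, the ferritin light chain (−0.21, SE 0.057, edgeR adjusted p = 0.317, DESeq2 adjusted p = 0.0367), and Gpx1, a glutathione peroxidase (−0.32). Ftl1 was lower in 7 of 7 stages, with 281, 354 and 512 CPM in picked and 307, 401 and 576 CPM in sorted batches. Mt1, a metal-binding metallothionein, ran from 2.67 through 190 to 387 CPM in picked and from 6.14 through 103 to 687 CPM in sorted batches, a difference of −0.36 (SE 0.20). Hmox1, heme oxygenase, stayed at or under 7.95 CPM in both groups. NF-kB and cytokine genes had a median of 0.11 over 13 tested genes (0.34 among full and −0.27 among short batches), and their feedback inhibitor Nfkbia differed by −0.39 (SE 0.23), but by 0.16 among full batches.

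Targets of p53 had the highest median of the stress lists, 0.24 over 14 genes with 8 higher and 6 lower, but it was −0.10 among full batches. Trp53inp1, a p53-induced autophagy and cell death gene, had 8.56, 16.1 and 53.6 CPM in picked and 3.83, 12.1 and 38.6 CPM in sorted batches, a difference of 0.65 (SE 0.26, unadjusted edgeR p = 0.0214, adjusted p = 0.484), higher in 7 of 7 stages. Bbc3, the pro-apoptotic PUMA, was likewise higher in 7 of 7 stages (1.15, SE 0.38, adjusted p = 0.384), at medians of 5.14 and 2.68 CPM, and Aen (−0.46) was lower. Cdkn1a, the cell cycle inhibitor p21, had 3.21, 20.5 and 48.8 CPM in picked and 2.37, 13.8 and 35.3 CPM in sorted batches, with a difference of 0.72 (SE 0.37, adjusted p = 0.631) that was −0.27 among full batches. In each of these genes the groups overlapped. Of 14 cytoskeleton, SRF and YAP targets tested, 12 were lower and 2 higher, none at an unadjusted p under 0.05, with a median of −0.16 (0.020 under spike-in scaling). Actb, cytoplasmic actin, differed by −0.079 (SE 0.12, 95% interval −0.32 to 0.16).

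**Figure D2:**
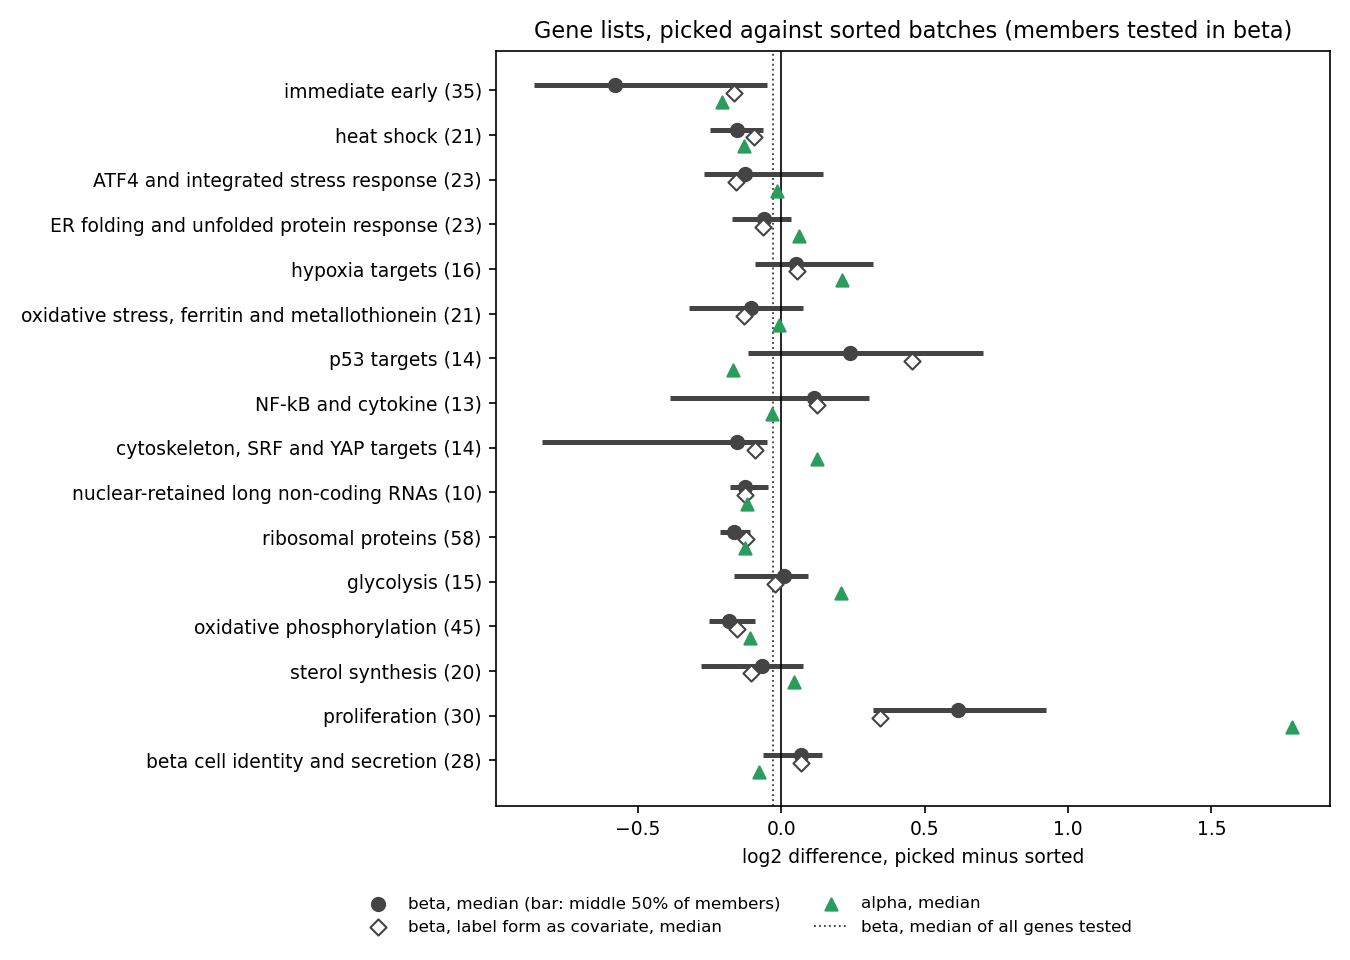
Median log2 difference, picked minus sorted, of each gene list on the horizontal axis, with list names and the number of members tested in β batches on the vertical axis. Filled circles with bars give β batches and the middle 50% of members, open diamonds the β fit with the label form as covariate, triangles α batches, and the dotted line the median of all genes (−0.031). The immediate early median moves from −0.58 to −0.17 when the label form enters, while the ribosomal (−0.16 to −0.12) and oxidative phosphorylation (−0.18 to −0.15) medians stay close to where they were.

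Genes that define the β cell state were nearly level between methods. Ins1 ran from 42233 to 221805 CPM in picked and from 69239.8 to 189489 CPM in sorted batches, a difference of −0.059 (SE 0.095, 95% interval −0.26 to 0.14), and Ins2 differed by −0.12 (SE 0.098, 95% interval −0.32 to 0.087). Both signs turned under spike-in scaling (0.10 and 0.050). Of 28 β cell identity and secretion genes, 18 were higher and 10 lower, with a median of 0.067. At an unadjusted p under 0.05, Abcc8 (0.24), the sulfonylurea receptor subunit of the KATP channel, was among the higher members, and the lower ones were Iapp (−0.24), which encodes amylin, and Ucn3. Ucn3, urocortin 3, a peptide that rises as β cells mature, had 31.2, 446 and 852 CPM in picked and 49.5, 434 and 1000.5 CPM in sorted batches. Its difference within stages was −0.40 (SE 0.16, 95% interval −0.72 to −0.076, adjusted p = 0.465), lower in 6 of 7 stages, −0.65 among full and 0.032 among short batches.

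Of the genes with at least 20 CPM that lay near the threshold, 8 are described here, chosen after their values were seen. Atp2a3, which encodes SERCA3, a calcium pump of the ER, had 484, 639 and 826 CPM in picked and 432, 495 and 582 CPM in sorted batches. It was higher in 7 of 7 stages (0.37, SE 0.070, edgeR adjusted p = 0.119, DESeq2 adjusted p = 0.00121), and its α cell difference was 0.36 (SE 0.16, adjusted p = 0.626). Pink1, a kinase that marks damaged mitochondria for removal, had 28.1, 59.7 and 87.3 CPM in picked and 15.3, 35.0 and 45.2 CPM in sorted batches, a difference of 0.75 (SE 0.16, edgeR adjusted p = 0.192) in 7 of 7 stages and of 0.69 in α cells. Rfx6, an islet transcription factor (0.51, SE 0.12), and Fbxo32, a ubiquitin ligase adaptor (1.00, SE 0.23), were also higher in 7 of 7 stages, both with an edgeR adjusted p of 0.317. In the other direction stood Selt, a selenoprotein of the ER named Selenot in GENCODE (−0.66, SE 0.13, edgeR adjusted p = 0.119). It had 27.4, 48.9 and 87.1 CPM in picked and 37.7, 76.5 and 152 CPM in sorted batches, and was lower in 5 of 7 stages. Ppa1, a pyrophosphatase, was lower in 7 of 7 (−0.61, SE 0.14), and Impact, an inhibitor of the kinase GCN2, in 6 of 7 (−0.55, SE 0.13), both with an edgeR adjusted p of 0.317. The pseudogene Gm13340 was lower in 7 of 7 stages (−0.31, SE 0.066, edgeR adjusted p = 0.192). In α cells the differences of Selt (−0.41), Rfx6 (0.20) and Fbxo32 (0.44) had the same sign as in β cells, and those of Ppa1 (0.10), Impact (0.36) and Gm13340 (0.20) the opposite one. In β batches all 8 kept their sign with the label form as covariate and within each form. From full to short batches the difference went from 0.76 to 0.30 for Fbxo32, 0.79 to 0.23 for Rfx6, −0.67 to −0.30 for Ppa1 and −0.45 to −0.078 for Gm13340. It went from 0.46 to 0.25 for Atp2a3, −0.77 to −0.63 for Selt, 0.89 to 1.225 for Pink1 and −0.50 to −0.79 for Impact. All 8 of these genes were called by DESeq2 and none by edgeR with the low-count filter. Without the filter edgeR called Selt (adjusted p = 0.0290) and Gm13340 (adjusted p = 0.0228), and besides them Vapb (−1.05, adjusted p = 0.0307), an ER membrane protein gene, and Crispld2 and Gna15, both with means under 3 CPM.

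**Figure D3:**
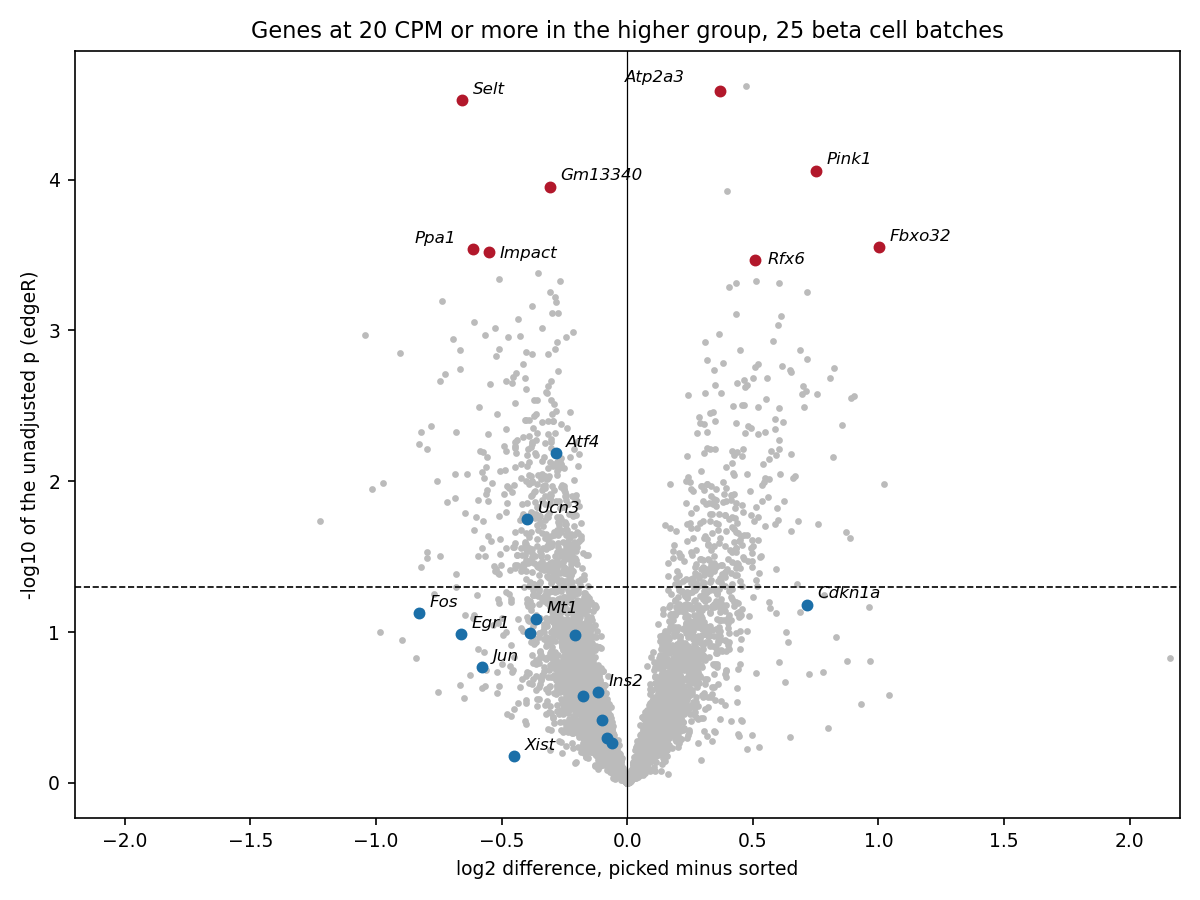
Unadjusted edgeR p (as −log10, vertical) against the log2 difference, picked minus sorted (horizontal), for genes of at least 20 CPM in the higher group of the 25 β batches. Blue points are the always named genes and red points the 8 genes chosen after their values were seen, of which Atp2a3 and Selt stand highest (adjusted p = 0.119), and the dashed line marks an unadjusted p of 0.05.

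Nuclear genes of the respiratory chain and of the ribosome had lower estimates in picked cells almost throughout. Of 45 oxidative phosphorylation genes, 42 were lower and 3 higher, with 17 lower at an unadjusted p under 0.05 (0 higher) and a median of −0.18. Over all 16107 genes tested, 8651 had a lower estimate, and 4.82% of the genes tested were lower at that threshold. Atp5g3, a subunit of the ATP synthase ring, had 41.7, 90.7 and 154 CPM in picked and 90.3, 126 and 156 CPM in sorted batches, a difference of −0.51 (SE 0.14, edgeR adjusted p = 0.317, DESeq2 adjusted p = 0.0484). Ndufa2 of complex I (−0.29) and Cox7b of complex IV (−0.39) were among the others. Of 58 ribosomal protein genes, 55 were lower and 3 higher, with 13 lower at that threshold and a median of −0.16. Rpl34 had 32.8, 67.0 and 125 CPM in picked and 55.1, 92.1 and 167 CPM in sorted batches (−0.45, SE 0.14, adjusted p = 0.380), and the groups overlapped in these genes as in the rest. Ribosomal protein genes have many processed pseudogene copies that can share their reads. edgeR called no member of either list, and DESeq2 called Atp5g3 alone. The medians were −0.30 and −0.27 among full and −0.029 and −0.077 among short batches for the ribosomal and respiratory lists. Under spike-in scaling both lay near 0 (0.0078 and −0.012), below the median of all genes in that scaling (0.13).

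Other lists of the cell state had small medians. Of 15 glycolysis genes tested, 8 were higher and 7 lower, with a median of 0.0091. At an unadjusted p under 0.05, 1 was higher and 4 were lower (all genes: 3.63% higher and 4.82% lower). The lower ones were Tpi1 (−0.24), Pgam1 (−0.21), Eno2 (−0.38) and Ldha. Of 20 sterol synthesis genes 7 were higher and 13 lower, with a median of −0.068 (−0.18 among full and 0.14 among short batches). Insig1 (0.34), which holds back sterol synthesis, was higher at that threshold, and Fdps (−0.27) and Mvd (−0.56), of the mevalonate pathway, were lower. Of 10 long non-coding RNAs kept in the nucleus, 2 were higher and 8 lower, with a median of −0.13. Neat1, the scaffold of paraspeckles, was lower at that threshold (−0.59), and Malat1 ran from 3634 to 6999.5 CPM in picked and from 3254 to 8559 CPM in sorted batches, a difference of −0.21 (SE 0.12, adjusted p = 0.691).

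The ribosomal and respiratory genes have short transcripts, and the difference between methods varied with transcript length among genes of at least 20 CPM, a pattern that was looked at after the data were seen. The gene length is the one in the deposited table. The median difference was −0.18 for transcripts of up to 750 bases, where 126 of 136 genes were lower. It was −0.16 from 750 to 1000 bases (157 of 172 lower), −0.12 from 1000 to 1500 bases (309 of 405 lower), −0.0032 from 3000 to 4000 bases, 0.036 from 4000 to 6000 bases, 0.041 from 6000 to 8000 bases and 0.016 above that. Over the 5186 genes Spearman's rho between length and difference was 0.27, given as a description because genes are not independent replicates. It was 0.27 among full and 0.15 among short batches, 0.26 with the label form as covariate and 0.14 in α cells. In α cells with the label form as covariate it was 0.040, and there the median for transcripts of up to 750 bases went from −0.21 to 0.041.

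**Figure D4:**
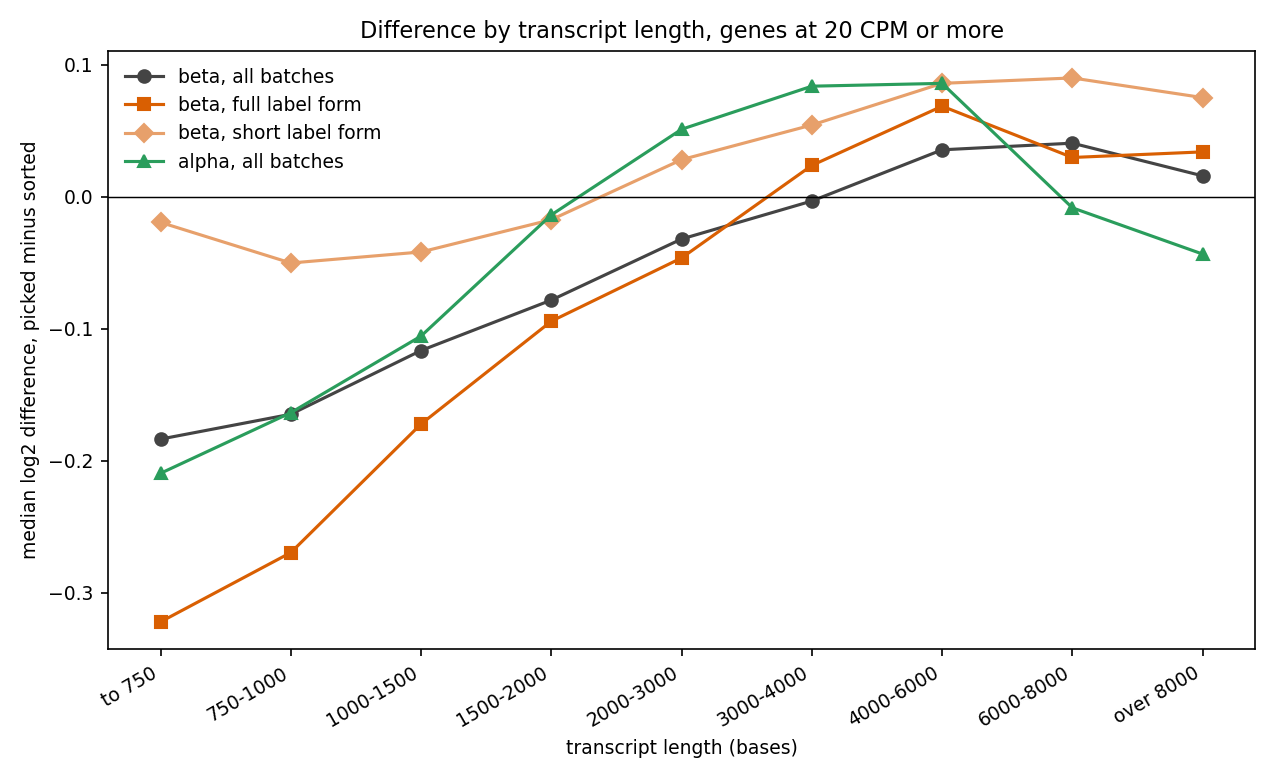
Median log2 difference, picked minus sorted, on the vertical axis for genes of at least 20 CPM in bins of transcript length on the horizontal axis. Lines give all β batches, β batches of the full form, β batches of the short form and α batches. In all β batches the median goes from −0.18 in the shortest bin to 0.036 between 4000 and 6000 bases.

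The same pattern was expressed per batch as the ratio of reads in 2130 long genes (at least 4000 bases) to reads in 789 short ones (at most 1500 bases). The ratio ran from 1.46 through 1.78 to 1.95 in picked and from 1.33 through 1.52 to 1.82 in sorted batches. The groups overlapped, but picked batches were higher on average in 6 of 7 stages, P15 being the exception. The ratio was 1.13-fold higher in picked batches (exact permutation p = 0.00350, adjusted p = 0.0245), and because it was chosen after the pattern was seen this p is no independent evidence. With the label form as a further stratum, which keeps only stages with both methods in a form, the log2 difference was 0.21 (exact permutation p = 0.00617). Over all batches it was 0.18. Among batches of at least 10 cells it was 0.13 (exact permutation p = 0.0767). The spike-ins, which had never been inside a cell, gave a ratio of long (at least 1000 bases, 44 RNAs) to short ones (at most 700 bases, 30 RNAs) of 0.991, 1.19 and 1.44 in picked and 0.738, 1.03 and 1.38 in sorted batches. That is also 1.13-fold (exact permutation p = 0.0556, adjusted p = 0.195), higher in 5 of 7 stages. In α batches the gene ratio was 1.09-fold higher (exact permutation p = 0.0417, adjusted p = 0.0972) and the spike-in ratio 0.944-fold (exact permutation p = 0.188). The part of the spike-in shift in the gene differences was not tested.

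**Figure D5:**
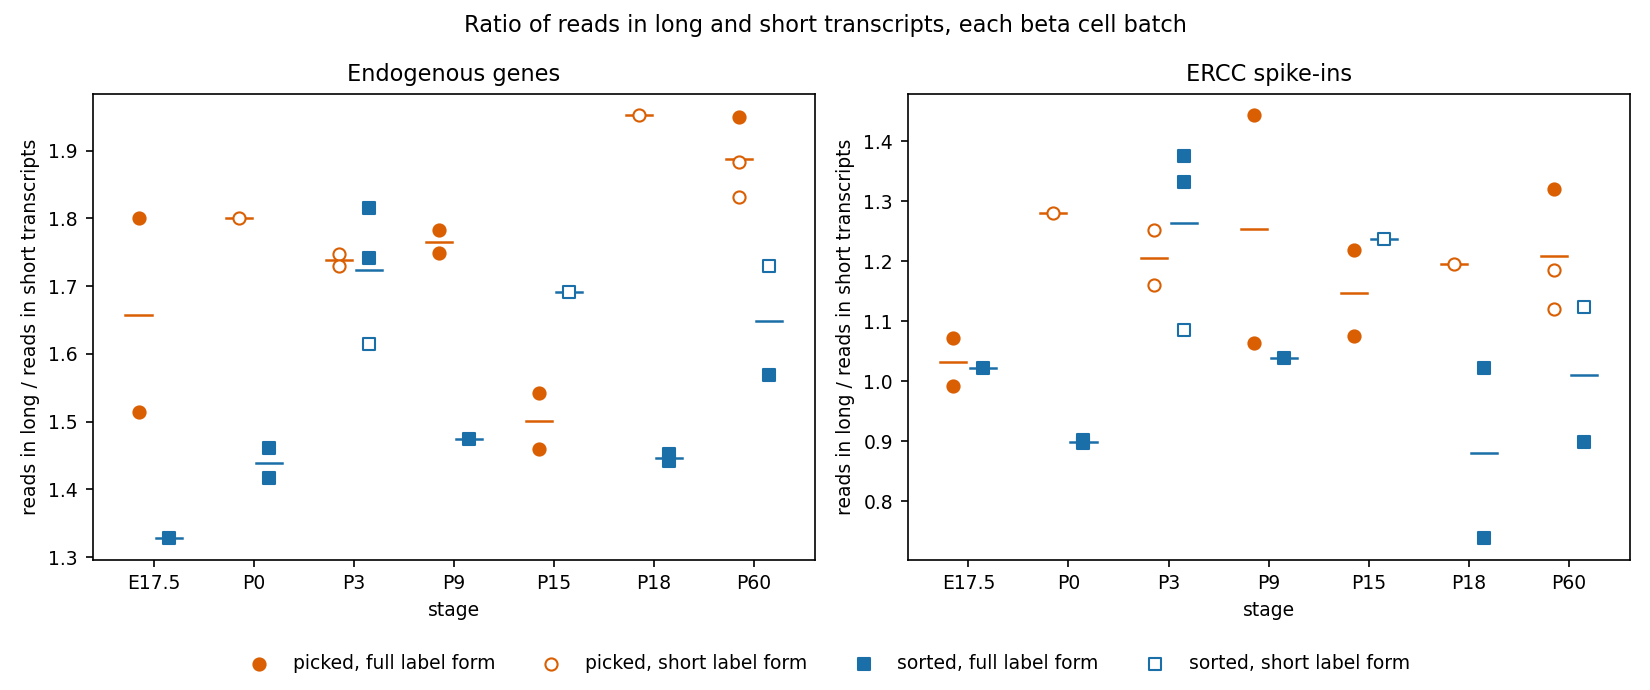
Ratio of reads in long to reads in short transcripts (vertical axis, no unit) by stage in each of the 25 β batches, for endogenous genes at the left and for ERCC spike-ins at the right, with method by colour, label form by open or filled marker and lines for the mean of each method at a stage. Gene ratios have medians of 1.78 in picked and 1.52 in sorted batches, and spike-in ratios 1.19 and 1.03.

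Markers of acinar, endothelial, immune, Schwann, mesenchymal and ε cells were low in both groups. Summed over the list, acinar markers reached at most 98.6 CPM in picked and 55.0 CPM in sorted batches (0.990-fold as a share of reads, exact permutation p = 0.972), endothelial markers 16.9 and 16.2 CPM, immune markers 9.08 and 7.23 CPM, Schwann cell markers 8.54 and 9.44 CPM, mesenchymal markers 5.10 and 6.09 CPM and ε cell markers 3.47 and 1.75 CPM. At an unadjusted edgeR p under 0.05, 1 of 3 mesenchymal and 1 of 2 ε cell genes tested were higher in picked batches and 0 lower. The summed medians of these 2 lists were at most 0.321 CPM in either group. Duct markers had larger sums, at 188 to 656 CPM in picked and 205 to 498 CPM in sorted batches. Of the erythroid list, 5 of 5 genes were tested and had higher estimates in picked batches, 4 at an unadjusted p under 0.05 (all genes: 3.63% higher). Their summed level was 988 CPM in the picked batch P3-3, 26.6 CPM in the picked batch P0-4 and at most 3.54 CPM in all others, so 2 picked batches of the short form stood apart. DESeq2 called 1 of these genes, Hba-a2. α markers summed to 605 to 2104 CPM in picked and 394 to 2615 CPM in sorted batches, with Ttr and Gpx3, which β cells also express, among the list. Gcg itself had medians of 2.16 and 2.69 CPM, with 218 CPM in the highest picked batch. δ cell markers summed to 53.2 to 947 CPM in picked (median 117) and 26.6 to 924 CPM in sorted batches (median 126). Of 4 tested, 2 were higher and 2 lower, with Casr (0.45) higher at an unadjusted p under 0.05. PP cell markers summed to 3.10 to 1220 CPM in picked (median 319) and 10.5 to 592 CPM in sorted batches (median 212). Of 3 tested, 2 were higher and 1 was lower, Etv1 (−1.48), which passed that threshold. By label form the PP medians were 543 CPM in picked full, 33.0 CPM in picked short, 244 CPM in sorted full and 111 CPM in sorted short batches. In these sums fewer cells of a type and less RNA per cell cannot be told apart, and the part of such cells in the differences above was not tested. With the acinar level as a covariate edgeR called 2 genes, Crispld2 and Gna15.

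In α cells edgeR likewise called 0 of 16998 genes between methods, and 0 of 24842 with no low-count filter, while 1260 had an unadjusted p under 0.05 (7.41%) and DESeq2 called 91 (0.535%). Of the 15327 genes tested in both cell types 54.9% had the same sign, and of the 1286 that had an unadjusted p under 0.05 in β cells 61.1% did. The immediate early list had a median of −0.21 in α cells, with Fos at −0.41 (SE 0.32) and Jun at −0.47 (SE 0.27). The share of spike-in reads was lower in picked α batches, 1.67% to 4.28% (median 2.97%) against 3.22% to 8.38% (median 4.70%), which was 0.569-fold (exact permutation p = 0.00139, adjusted p = 0.00972) and lower in 6 of 6 stages. Since all but 1 picked α batch had the short form and all but 1 sorted batch the full form, method and form can hardly be separated there. Within forms the log2 difference was −0.26 in place of −0.81, but only the full batches at P0 and the short ones at P60 held both methods. With 8 arrangements (exact permutation p = 0.625) that test could not reach a p under 0.05.

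The test of whether the method effect differed between α and β batches called 6 of 18537 genes (0.0324%), with 1260 at an unadjusted p under 0.05 (6.8%). DESeq2 called 126 (0.68%) and edgeR without the filter 2 of 27415 (0.0073%), Sez6l and Dcdc2a. The 6 were Sez6l, Dcdc2a, Ppp1r2, Letmd1, St8sia5 and Umps. Ppp1r2, an inhibitor of protein phosphatase 1, had medians of 94.6 and 119 CPM in picked and sorted β batches and of 146 and 97.2 CPM in picked and sorted α batches. Umps, of pyrimidine synthesis, had 28.8 and 38.6 CPM in β and 64.8 and 43.5 CPM in α batches, and Letmd1 14.5 and 23.8 CPM in β and 39.5 and 27.1 CPM in α batches. These 3 thus had lower medians in picked β and higher medians in picked α batches. Sez6l, a membrane protein gene at 133 and 116 CPM in β batches, had no read in 7 of 9 picked and 7 of 11 sorted α batches. St8sia5, a sialyltransferase gene at 26.0 and 24.1 CPM in β batches, had reads in 1 of 20 α batches only, and Dcdc2a reached at most 11.2 CPM in α batches, so their fitted differences come from α levels near 0.

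Whether the method effect in β cells differed between E17.5 to P9 and P15 to P60 was tested in the same way. edgeR called 0 of 17032 genes, 863 had an unadjusted p under 0.05 (5.07%), DESeq2 called 51 (0.299%) and edgeR without the filter 4 of 25710 (0.0156%), which were Npy, Nuggc, Mfge8 and Ugt8a. Npy, neuropeptide Y, is a gene of immature β cells.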

How the data were processed

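Single cells had been processed by Smart-seq2, with libraries built by a TruePrep kit, per the labels' protocols. The authors deposited raw counts, reads per gene with neither scaling nor molecular identifiers, in a table of 40824 gene rows, 92 ERCC rows and 917 cells. TopHat2 2.1.0, HTSeq 0.6.0, DESeq 1.20.0 and the builds GRCm38 and mm10 are named in the submitters' processing notes. The role of each tool and the strand setting are not given in the sources used here, so antisense and overlapping genes are uncertain. Reads in ERCC rows stayed out of gene totals. Another 51 columns (2-hormone, enriched or progenitor cells) were not used, and mitochondrially encoded genes are not analysed here.

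Counts were summed per labelled batch and tested across all genes with edgeR 4.0.16 in R 4.3.3 (quasi-likelihood, TMM, filterByExpr), with stage as a factor and method as the coefficient. A gene was called at a Benjamini-Hochberg adjusted p under 0.05. The same fit was made in α batches, and 2 interaction fits tested differences between cell types and ages. DESeq2 1.42.0 and limma 3.58.1 served as alternatives, with other scalings, filters, covariates and subsets of batches. The fits were tested on simulated data. Values per batch were compared by two-sided exact permutation within stages, adjusted over a family of 7. The labels name no animals, so p-values reflect how batches vary, and that variation may be technical. Reads are not independent molecules.

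Members and lists were chosen with earlier results of these data known. Genes were to be named as the 10 largest called changes in each direction (at least 20 CPM, same sign in at least 5 of 7 stages, no predicted, pseudogene, ribosomal or mitochondrial names), per list the 2 called members of smallest p (from 5 CPM up), and 20 always named genes. With 0 calls only the last part gave names. The ratios by transcript length, the test of the label form and 8 further genes were added after seeing the data. Some genes are not reported here.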

Additional observations from a re-analysis of the deposited data

Results flagged for a closer look

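The effect of the method, picked minus sorted, differed between α and β batches for 6 genes in a test of that difference itself (edgeR interaction term, α minus β, adjusted p under 0.05). It was −5.86 on the log2 scale for Sez6l (adjusted p = 0.00168), −6.27 for Dcdc2a (adjusted p = 0.0150), −5.76 for St8sia5 (adjusted p = 0.0478), 0.71 for Ppp1r2 (adjusted p = 0.0478), 1.42 for Letmd1 (adjusted p = 0.0478) and 1.00 for Umps (adjusted p = 0.0489). For Sez6l, Dcdc2a and St8sia5 the fitted values are no bounds, since the mean α levels were 0.354, 1.31 and 0.123 CPM. For Ppp1r2, Letmd1 and Umps both cell types had at least 19.2 CPM on average, with β differences of −0.34, −0.59 and −0.40 and α differences of 0.37, 0.84 and 0.60. The method coincides with the label form in nearly all α batches, so a difference by label form cannot be told apart from it there.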

How the results depend on the processing

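No paired analysis was possible because within a stage each batch number belongs to 1 method, so no replicate block pairs a picked with a sorted batch. The number of batches, 25, limits precision. Intervals were more often wide below 20 CPM, and the part of read depth in this was not tested. Of 418 gene values under alternatives 382 kept sign and side of the threshold, and of 240 list medians 235 moved by less than the spread. Leaving out 1 batch turned the list medians of NF-kB genes (−0.13, P3 picked 3), glycolysis (−0.088, P18 picked 3) and hypoxia targets (−0.014, P18 picked 3). It moved others by over 1.5 times: ATF4 −0.030 (P18 picked 3) and −0.20 (P9 sorted 2), ER folding −0.14 (P0 sorted 2), ferritin −0.029 (P0 picked 4), β identity 0.0075 (P9 sorted 2), cytoskeleton −0.27 (P60 sorted 5), p53 0.14 (E17.5 sorted 3) and 0.43 (P3 sorted 2), and sterol −0.14 (P18 picked 3). Where values changed, the cause was not tested.

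Called genes: DESeq2 gave 103 in β, 91 in α, 126 for the cell type difference, 51 for the age difference, and 230 (β) and 266 (α) for the label form. No low-count filter gave 5, 2 for the cell type difference, 4 for age and 111 for the label form in β. The acinar covariate gave 2, and 1 joint fit 7 for the label form in β. Leaving out each batch gave 0 to 3 calls in β (3 without the P15 sorted batch 3, with Calm3 and Selt among them; 1 without the P3 sorted batch 1: Gna15) and 0 to 1 in α (Akap9, without the P0 picked batch 3).

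Signs turned as follows. Short form only: Fos 0.23, Jun 0.33, Ddit3 0.080, Hspa5 0.26, Actb 0.32, Ins1 0.084, Ins2 0.035, Ucn3 0.032 and Xist 0.054. Full form only: Hspa1b −0.95, Cdkn1a −0.27 and Nfkbia 0.16. Label form as covariate: Jun 0.069, Ddit3 0.10 and Actb 0.017. Spike-in library size: Hspa5 0.069, Actb 0.11, Ins1 0.10 and Ins2 0.050. Equal weight of cells: Hspa5 0.027, Ins1 0.0032 and Xist 0.10. Batches of at least 10 cells: Vegfa 0.019, Ins1 0.064 and Ins2 0.0057. Leaving out 1 batch turned Ins1 (−0.12 to 0.013) and Xist (−1.54 to 0.10).

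Values per batch, as log2 differences. With at least 10 cells, β reads per cell were 0.058, β spike-in share 0.0085, β insulin share 0.019, the β long to short ratio 0.13, α reads 0.15 and the α ratio 0.068. With label form as a stratum, β reads were 0.057, β spike-in share 0.076, α reads −0.0041, α spike-in share −0.26, α acinar share −0.91 and the α ratio 0.072. As a mean over cells, the β acinar share was 0.014 and α genes detected 0.0063 (0.0048 without thinning). Leaving out each batch gave β reads −0.039 to 0.041, β spike-in share −0.15 to 0.0039, β genes detected −0.0081 to 0.015, β acinar share −0.27 to 0.21, β spike-in length ratio 0.13 to 0.21, α reads 0.13 to 0.20, α genes detected −0.025 to 0.011, α hormone share −0.028 to 0.061 and the α ratio 0.077 to 0.16. The alternatives for the label form and the length ratios, and the α values without single batches, were chosen after seeing the data.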

Other observations

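Proliferation genes had a median difference of 0.62 over 30 genes, 29 with a higher estimate in picked β batches and 1 with a lower one, and edgeR gave 0 members at an unadjusted p under 0.05 in either direction. The summed level was 2459 CPM in the picked batch P0-4 of 9 cells, and the group medians were 233 CPM (picked) and 342 CPM (sorted), which is the opposite order. Without that batch the median difference was 0.24, and without the E17.5 sorted batch 3 it was 0.99. Among full batches it was −0.76 (23 of 30 lower). Among short batches it was 1.53, with 28 of 30 higher and 4 of them at an unadjusted edgeR p under 0.05. Over all genes of that fit, 463 of 14163 were higher at that threshold and 207 lower, with a median of 0.055. The fits within the forms share only P60, so form and stage cannot be told apart there. In α batches the median was 1.78, with 26 of 30 higher and 7 of them at an unadjusted edgeR p under 0.05 (all genes: 593 of 16998 higher). Mki67, a marker of dividing cells, had 0 to 174 CPM in picked and 0.131 to 52.0 CPM in sorted batches, with a difference of 0.45 (SE 0.64).

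Xist, which is transcribed from the inactive X chromosome in female mice, ran from 0 to 125 CPM in picked and from 0 to 128 CPM in sorted batches, so both groups mixed batches with and without it. Adding its level as a covariate changed the sign of 0 of 28 named genes.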
